A study of Rattus norvegicus with 12 samples.

Results

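H9c2(2-1) cells that spent 36 h without glucose in the presence of 100 µM empagliflozin were compared with control cells, gene by gene. The comparison rests on 6 of the 12 RNA-seq libraries of the series, 3 for each group, chosen by the group labels of the deposited columns. It covers 12314 of the 35966 rows of the gene table, namely those with at least 1 TPM (transcripts per 1000000 transcripts) in at least 3 libraries. The 100 µM group is labelled as deprived of glucose for 36 h with the drug at that concentration, and control cells grew in high-glucose DMEM with 10% fetal bovine serum. The genotype is labelled as wild type, and the tissue as heart. H9c2(2-1) is a line of rat myoblasts from embryonic heart, and all libraries come from this line. The remaining libraries are deprived cells without the drug (GD) and deprived cells with 200 µM, 3 of each. They are shown where the 100 µM group is set against them, and they also enter the estimate of the spread between libraries. Cells with the drug in glucose-containing medium are not analysed here, and the labels give neither the serum of the deprived cells nor the solvent of the drug. In the comparison with control, lack of glucose, the drug, and any change of serum or solvent therefore cannot be told apart; the comparison with GD cells holds the lack of glucose in common.

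Glucose feeds glycolysis and also supplies the sugar chains that newly made proteins receive in the endoplasmic reticulum (ER). When these chains or amino acids run short, sensor kinases phosphorylate the translation factor eIF2α, general protein synthesis slows, and the transcription factors ATF4 and CHOP switch on stress genes; ER sensors such as ATF6 and IRE1 switch on chaperones in parallel. Glucose shortage is also known to lower genes read by the glucose-sensing factor MondoA, of which Txnip is the best known, and to stop proliferation. Empagliflozin inhibits SGLT2, the sodium-glucose cotransporter of the kidney encoded by Slc5a2, and is used against diabetes and heart failure.

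Library totals were 965701.4 to 981389.8 TPM in the 100 µM group and 946400.5 to 967813.5 TPM in control. Between 10875 and 11078 rows reached 1 TPM in the 100 µM libraries, against 12018 to 12074 in control. The number of reads behind a value is lost in TPM, so the depth is unknown. Correlations of log2(TPM + 1) across genes, which are not independent replicates, were 0.991 to 0.994 among the 100 µM libraries and 0.992 to 0.993 among control libraries. The second 100 µM library stood slightly nearer to control, at 0.893 to 0.896, than the other two, at 0.875 to 0.880. Without it, 1663 genes were higher and 8060 lower, and values that rest on it are given with and without it below. The labelled cell type, a myocardial cell, was set against marker genes of heart muscle. Of 26 such genes 9 reached the filter, and Nppa, Nppb, Myl7, Tbx5 and Ryr2 were listed at 0 in all libraries of both groups, while Tnnt2, cardiac troponin T, averaged 22.3 ± 6.97 TPM at 100 µM and 142 ± 11.8 TPM in control and Myod1, the skeletal myogenic factor, 3.81 ± 2.01 TPM at 100 µM and 58.8 ± 4.7 TPM in control (SD, n = 3 each). Other heart muscle markers were well above the filter in control: Hand2 at 201 to 229 TPM, Gja5 at 170 to 174 TPM and Casq2 at 138 to 145 TPM. At 100 µM they were at 34.9 to 39.5, 1.87 to 3.21 and 6.05 to 7.24 TPM, in the same order.

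The 100 µM group differed from control in most of its transcriptome. At an adjusted p under 0.05 (limma-trend on log2(TPM + 1), Benjamini-Hochberg over all genes tested), 9937 of 12314 genes differed (80.7%), of which 1738 were higher (14.1%) and 8199 lower (66.6%). The direction of small changes depends on scaling. Over the tested genes the median log2 fold change was -0.62. Beside it, the 100 most abundant rows held 51.2% to 54.2% of all TPM at 100 µM and 36.2% to 37.5% in control. After median-of-ratios scaling, which sets the typical gene to no change, the median was 0.01, and 4716 genes were higher and 4712 lower (38.3% each). That scaling shifted the median log2 fold change by 0.67, and 1065 genes were called lower as deposited and higher after scaling, while 0 went the opposite way. Changes are therefore given as deposited, with the split after scaling beside them, since TPM give shares of a library and not absolute amounts. Counts as deposited in the gene lists below are to be read against the 14.1% higher and 66.6% lower of all genes. Some genes named below passed the filter through control or through deprived libraries alone, which all but fixed their direction. Angptl4, Csf2, Cx3cl1, Gbp5 and Mmp13, for example, were under 1 TPM in every control library and could hardly come out lower. Elovl6, Il1rl1, Mycn and Txnip were under 1 TPM in every 100 µM library, passed only because of control, and could hardly come out higher. The spread was wide: 298 genes had a log2 fold change of -3 or less and 22 of 3 or more, and 4016 were at least 2-fold lower (32.6%), against 437 at least 2-fold higher (3.55%). The p-values measure only the spread between these libraries, since the labels do not say that they are separate cultures.

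**Figure D1:**
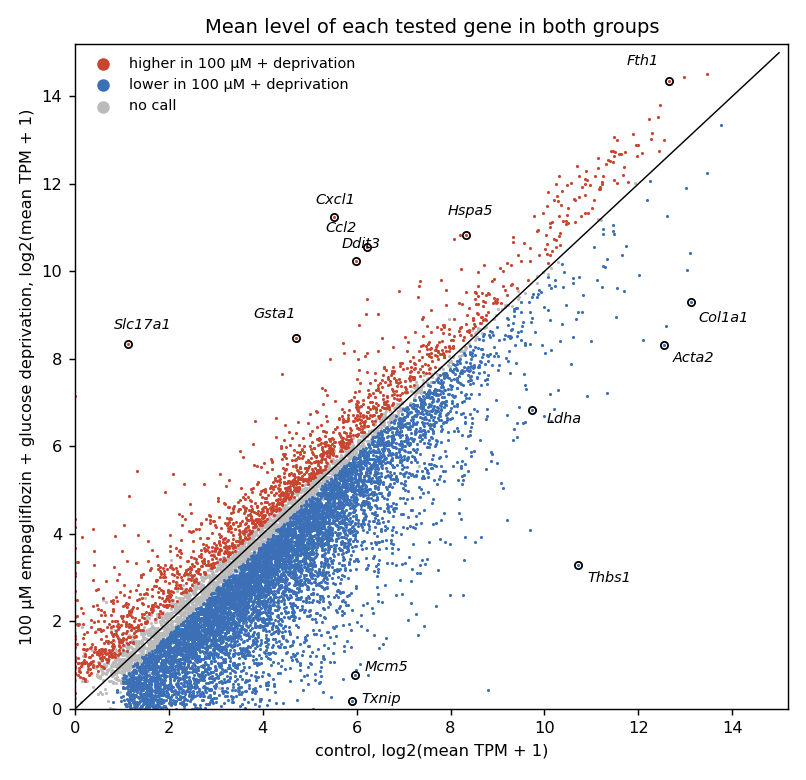
Mean level of each of the 12314 tested genes in deprived cells with 100 µM empagliflozin (vertical axis) and in control cells (horizontal axis), both as log2(mean TPM + 1) over 3 libraries; the line marks equal levels and colours mark genes called higher (1738), lower (8199) or neither. The bulk of the cloud lies below the line, while stress, chemokine and ferritin genes such as Ddit3, Cxcl1 and Fth1 lie above it.

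Ddit3, the gene of the CHOP transcription factor, had the largest change among the regulators of the integrated stress response. It was at 1093, 1262 and 1237 TPM in the 100 µM libraries, against 61.4, 62.2 and 62 TPM in control, and the groups lay far apart (log2 fold change 4.25, SE 0.11, adjusted p = 6.88e-12). Of 22 tested members of this list, 10 were higher and 9 lower, with a median log2 fold change of 0.13 beside -0.62 for all genes, and 14 higher and 6 lower after scaling. Atf3, a partner of CHOP that stands on more than 1 row of the table, had 33.4, 34.4 and 35.2 TPM in the 100 µM libraries, against 3.69, 4.25 and 3.96 TPM in control. Trib3, a pseudokinase induced by CHOP and ATF4, had 272, 321 and 280.2 TPM in the 100 µM libraries, against 51.1, 67.3 and 63 TPM in control; every 100 µM library exceeded every control library. Ppp1r15a, whose product GADD34 brings phosphatase to eIF2α, averaged 330.4 ± 15.7 TPM at 100 µM and 51.5 ± 1.06 TPM in control (log2 fold change 2.66). Atf4 itself, whose protein is controlled mainly through its translation, changed less, with 715, 754 and 762 TPM in the 100 µM libraries, against 368, 367 and 369.9 TPM in control (1.01). Eif2ak1, the haem-regulated eIF2α kinase, fell to 24.2 ± 1.83 TPM, against 70.3 ± 3.04 TPM in control (log2 fold change -1.50). Gdf15, a secreted stress hormone, was low but higher in all 100 µM libraries, at 5.09, 3.04 and 2.85 TPM in the 100 µM libraries, against 0.6, 0.21 and 0.76 TPM in control. Fgf21, another such hormone, did not reach the filter, with 0.14, 0.65 and 0.51 TPM at 100 µM and 0 TPM listed in all control libraries.

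Genes that supply amino acids were more often lower than higher as deposited, as were all tested genes (66.6% lower and 14.1% higher). Of 19 enzymes of serine, glycine, asparagine and proline synthesis and their neighbours, 5 were higher and 12 lower (median -0.98), and 8 higher and 9 lower after scaling. Asns, the asparagine synthetase that is a textbook ATF4 target, had 47.1, 47.7 and 53.3 TPM in the 100 µM libraries, against 45.5, 47.8 and 49.2 TPM in control. The groups overlapped and the test did not call it (0.05, SE 0.09, adjusted p = 0.59); after scaling it was called higher (0.77). Psph, the last enzyme of serine synthesis, rose to 139 ± 11.7 TPM, against 60.2 ± 3.67 TPM in control, whereas Psat1, the enzyme before it, fell to 51.4 ± 3.27 TPM, against 129 ± 2.05 TPM in control (log2 fold changes 1.19 and -1.31). Glul, glutamine synthetase, was at 5.99, 6.58 and 6.73 TPM in the 100 µM libraries, against 32.7, 30.4 and 29.5 TPM in control, a clear fall. Among 15 amino acid transporters, 4 were higher and 8 lower, and 8 higher and 5 lower after scaling. Slc3a2, the heavy chain shared by several exchangers, had the largest rise of these, with 1036, 1120.3 and 1039 TPM in the 100 µM libraries, against 284, 311 and 298 TPM in control (1.84, SE 0.11, adjusted p = 7.86e-09). The 20 cytosolic aminoacyl-tRNA synthetases moved little, with 5 higher, 8 lower and none past 2-fold, and 18 higher and 0 lower after scaling; Wars, for tryptophan, had the largest rise (log2 fold change 0.85) and Iars, for isoleucine, the largest fall (-0.91, and -0.20 with no call after scaling).

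Most chaperones and folding enzymes of the ER were higher. Of 36 tested, 22 were higher and 10 lower, with a median log2 fold change of 0.57; after scaling 31 were higher and 3 lower. Hspa5, the chaperone BiP that also holds the ER stress sensors in check, had 1724, 1849 and 1913 TPM in the 100 µM libraries, against 328, 324 and 315 TPM in control, a rise of 5.67-fold in mean TPM (log2 fold change 2.50, SE 0.19, adjusted p = 6.50e-08). Sdf2l1, a BiP co-factor, had 503, 482 and 569.7 TPM in the 100 µM libraries, against 68.6, 72.3 and 75.9 TPM in control. Both genes were far above control in every 100 µM library. Manf, a secreted ER protein, rose to 759 ± 32.5 TPM, against 239.7 ± 11.1 TPM in control (log2 fold change 1.66). Vimp, the selenoprotein S of the retrotranslocation complex, rose by 1.05 on the log2 scale. Dnajc10, a reductase that helps to unfold proteins for degradation, went the other way, with 24.1, 24.1 and 24.3 TPM in the 100 µM libraries, against 66.5, 61.9 and 57.3 TPM in control. Xbp1, the transcription factor that IRE1 activates by splicing, averaged 80.6 ± 3.21 TPM at 100 µM and 90.8 ± 1.6 TPM in control and was not called (-0.17, adjusted p = 0.073; 0.55 and called higher after scaling); gene-level TPM do not show splicing.

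The promoters of 4 ER folding genes are shown because they hold the ER stress element, the sequence that ATF6 and its partners bind, and 3 of these genes (Hsp90b1, Dnajc3 and Creld2) were chosen for that after their values were seen. Sequences are from RefSeq, build GRCr8, matched by gene symbol, and end at the last base before the annotated start; the deposited table gives no coordinates. They lie at chr3:38452916-38453015 (plus strand), chr7:23012294-23012483 (minus strand), chr15:102432517-102432666 (plus strand) and chr7:121789224-121789383 (plus strand), and capitals mark the element (CCAAT, 9 bases of any kind, CCACG, on either strand).
Hspa5: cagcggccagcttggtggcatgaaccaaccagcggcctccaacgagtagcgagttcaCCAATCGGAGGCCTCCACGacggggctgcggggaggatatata
Hsp90b1: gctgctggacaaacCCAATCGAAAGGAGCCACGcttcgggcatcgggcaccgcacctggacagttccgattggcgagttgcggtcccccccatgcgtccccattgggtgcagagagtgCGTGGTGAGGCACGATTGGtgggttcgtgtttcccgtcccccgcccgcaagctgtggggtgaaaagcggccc
Dnajc3: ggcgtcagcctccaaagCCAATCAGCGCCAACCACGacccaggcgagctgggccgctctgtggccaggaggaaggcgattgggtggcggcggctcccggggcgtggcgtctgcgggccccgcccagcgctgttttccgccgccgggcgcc
Creld2: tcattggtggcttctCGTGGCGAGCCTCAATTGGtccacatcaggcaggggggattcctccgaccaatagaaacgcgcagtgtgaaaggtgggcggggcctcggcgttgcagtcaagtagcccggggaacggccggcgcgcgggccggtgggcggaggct

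The element was searched in the 250 bases before the start, and its end can overlap an E-box. It was found in 8 of the 28 ER folding genes with a promoter in the table (28.57%), in 0.16% of the 9163 tested rows that matched, and in 0.07% of all 33469 promoters. Of these 8 genes 7 were higher at 100 µM, and the remaining one was Xbp1. Their median log2 fold change was 1.43, against 0.34 for the 20 members without the element. Hsp90b1, the ER member of the HSP90 chaperones, rose to 1124 ± 42.2 TPM, against 417 ± 15.4 TPM in control, and its promoter holds the element at 2 places. Dnajc3, an inhibitor of the eIF2α kinase PERK, rose to 106 ± 6.56 TPM, against 30.9 ± 3.18 TPM in control. Creld2, an ER-resident disulfide isomerase-like protein, had 146, 157 and 178 TPM in the 100 µM libraries, against 35.1, 38.7 and 37.7 TPM in control. Among regulators of the integrated stress response, the ATF4-CHOP composite element (TGATGNAAT, either strand) was found in 1 of 21 promoters, that of Nupr1, beside 0.46% of tested rows and 0.94% of all promoters. A match describes letters in this window and says nothing of binding.

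Genes of glucose sensing and glycolysis were mostly lower. Txnip, a glucose-induced gene whose product limits glucose uptake, was at 0.18, 0.09 and 0.13 TPM in the 100 µM libraries, against 56.7, 56.3 and 62 TPM in control. Its mean TPM was 439-fold lower, a ratio to values near the floor. On log2(TPM + 1), which understates changes of low genes, the log2 fold change was -5.71 (SE 0.12, adjusted p = 1.68e-12, limma). Txnip was under 1 TPM in every deprived library, so it passed the filter through control alone and could only come out lower. Of the 5 tested genes of glucose sensing, 4 were lower, and after scaling 1 was higher and 4 lower; Klf10, a transcription factor, and Tkfc, a kinase of the fructose pathway, fell by 1.68 and 1.72 on the log2 scale. Of 25 genes of glucose uptake and glycolysis, 1 was higher and 20 lower, with a median of -1.16, and 7 higher and 15 lower after scaling. Pfkm, the muscle form of phosphofructokinase, had 8.15, 11.9 and 7.01 TPM in the 100 µM libraries, against 131, 132 and 127 TPM in control (log2 fold change -3.74, SE 0.18, adjusted p = 6.82e-10). Ldha, a lactate dehydrogenase subunit, had 104, 115 and 120.3 TPM in the 100 µM libraries, against 829, 872 and 862 TPM in control, and Ldhb, the partner subunit, averaged 70.3 ± 11.2 TPM at 100 µM and 638 ± 5.22 TPM in control. Gapdh, often used as a reference transcript, fell to 1523 ± 42.1 TPM, against 3414 ± 103 TPM in control (-1.16, and -0.43 after scaling). Hk2, the first enzyme of glycolysis, fell by 1.24 on the log2 scale. Slc2a1, the transporter GLUT1, had 14.9, 10.8 and 17.7 TPM in the 100 µM libraries, against 12.5, 13 and 12.9 TPM in control; the groups overlapped and it was not called (0.14, adjusted p = 0.484), while it was called higher after scaling (0.82). Slc16a1, the lactate carrier MCT1, was the member called higher, by 0.30 on the log2 scale (1.01 after scaling); this call was lost without the first or the third 100 µM library or the second or the third control library, at 0.24 to 0.32.

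The hexosamine pathway, which makes the sugar donor for glycosylation, was mixed, with 3 of 11 genes higher and 6 lower, and 7 higher and 3 lower after scaling. Gfpt1, its rate-limiting enzyme, had 10.2, 10.9 and 11.5 TPM in the 100 µM libraries, against 36.1, 33.3 and 33 TPM in control, and every 100 µM library was below control. Gnpda2, which runs the pathway backwards to fructose 6-phosphate, rose to 12.1 ± 1.02 TPM, against 6.08 ± 0.395 TPM in control. Mgea5, which encodes the O-GlcNAcase that removes the sugar from proteins, fell to 3.45 ± 0.657 TPM, against 36.5 ± 0.667 TPM in control (-3.08). Of 30 genes of N-glycan assembly, 4 were higher and 17 lower, and 14 higher and 10 lower after scaling. Alg9 and Alg12 are mannosyltransferases of neighbouring steps; Alg9 fell by 1.58 on the log2 scale and Alg12 rose by 0.72.

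Mitochondrial genes were mostly lower as deposited, as were all tested genes (66.6% lower and 14.1% higher). Of 34 genes of pyruvate entry and the citric acid cycle, 2 were higher and 25 lower, and 13 higher and 14 lower after scaling. Mpc1, a subunit of the mitochondrial pyruvate carrier, was one of those higher, at 189, 201 and 200.3 TPM in the 100 µM libraries, against 108, 103 and 106 TPM in control. Idh2, the mitochondrial NADP-linked isocitrate dehydrogenase, fell to 54.3 ± 9.9 TPM, against 237 ± 2.68 TPM in control. Pdk4, a kinase that shuts pyruvate dehydrogenase, stayed below the filter at 0.09, 0.08 and 0 TPM at 100 µM and 0.27, 0.29 and 0.18 TPM in control. For the 57 nuclear-encoded respiratory chain genes the direction turned with scaling: 9 were higher and 36 lower as deposited, but 40 higher and 3 lower after scaling. The median of this list as deposited was -0.28, beside -0.62 for all genes. Their log2 fold changes ran from -1.16 for Atp5a1, the alpha subunit of ATP synthase, to 0.78 for Ndufa6 of complex I, which had 584, 556 and 585 TPM in the 100 µM libraries, against 331, 332 and 343 TPM in control. Of 28 genes of fatty acid oxidation and its regulation, 6 were higher and 20 lower, and 10 higher and 13 lower after scaling. Acaa2, the last enzyme of each oxidation round, had 8.63, 11.9 and 10.8 TPM in the 100 µM libraries, against 55.3, 58.2 and 58.7 TPM in control, and Ucp2, an inner membrane carrier, averaged 4.56 ± 0.369 TPM at 100 µM and 38.2 ± 2.46 TPM in control. Angptl4, a secreted inhibitor of lipoprotein lipase, was the member with the largest rise, with 8.02, 3.77 and 8.47 TPM in the 100 µM libraries, against 0.3, 0.33 and 0.29 TPM in control (2.50, SE 0.24, adjusted p = 5.73e-07).

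Sterol and fatty acid synthesis genes were nearly all lower. Of 25 genes of cholesterol synthesis and uptake, 24 were lower and the remaining one had no call (median -1.46), and 21 were lower and 1 was higher after scaling. Hmgcs1, an enzyme of the first steps, had 12.4, 16.6 and 11.8 TPM in the 100 µM libraries, against 106, 98.3 and 88.2 TPM in control, with no overlap (log2 fold change -2.77, SE 0.20, adjusted p = 2.77e-08). Of 15 genes of fatty acid synthesis, 14 were lower and the remaining one had no call (median -1.52), with 3 higher and 11 lower after scaling. Fads2, the delta-6 desaturase, had 32.5, 45.5 and 25.6 TPM in the 100 µM libraries, against 295, 317 and 293 TPM in control, and Elovl6, an elongase, was at 0.24, 0.1 and 0 TPM in the 100 µM libraries, against 13.8, 10.4 and 11.1 TPM in control. Acss2, which turns acetate into acetyl-CoA, averaged 6.21 ± 1.1 TPM at 100 µM and 45.4 ± 1.17 TPM in control (-2.70).

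Lysosomal genes were split, with a larger share of higher calls than among all genes. Of 48 tested, 22 were higher and 16 lower, beside 14.1% and 66.6% of all genes, and 38 higher and 4 lower after scaling. Mcoln3, a cation channel of endosomes and lysosomes, had the largest change: it was at 42.2, 32.2 and 53.2 TPM in the 100 µM libraries, against 1.51, 1.86 and 1.11 TPM in control (4.11, SE 0.21, adjusted p = 1.17e-09). Its relative Mcoln1, the main lysosomal calcium channel, rose to 125 ± 6.42 TPM, against 38 ± 3.29 TPM in control, and Atp6v1c1, a subunit of the proton pump, to 268 ± 13.6 TPM, against 71 ± 4.79 TPM in control. Gusb, the hydrolase β-glucuronidase, fell to 21.8 ± 2.32 TPM, against 83 ± 4.67 TPM in control. The E-box CACGTG, which the lysosomal regulator TFEB can bind, was found in 10 of 35 promoters of this list (28.57%), in 8.74% of tested rows and in 5.59% of all promoters; of these 10 genes 4 were higher and 5 lower, and of the 25 without it 11 were higher and 7 lower. Other lists held it about as often, with 10 of 34 ribosome assembly promoters (29.41%) and 4 of 14 amino acid transporter promoters (28.57%). Of 41 autophagy genes, 11 were higher and 24 lower, and 22 higher and 13 lower after scaling. Sqstm1, the cargo receptor p62, had 1765, 1709.8 and 1857 TPM in the 100 µM libraries, against 616, 662 and 645 TPM in control (1.47, SE 0.07, adjusted p = 1.07e-09). Gabarapl1 and Gabarap, of the ATG8 family that coats autophagosomes, rose by 1.02 and 0.86 on the log2 scale, and Map1lc3b, the best known member, by 0.23. Becn1, of the initiating lipid kinase complex, averaged 64.7 ± 5.32 TPM at 100 µM and 83.6 ± 3.04 TPM in control and was called lower (-0.37), but higher after scaling (0.36).

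Detoxification and iron storage genes were also split. Of 36 genes of the NRF2 type with ferritins, 20 were higher and 12 lower (median 0.28), and 27 higher and 6 lower after scaling. Gsta1, a glutathione transferase, had 359, 372 and 340.3 TPM in the 100 µM libraries, against 24.1, 24.1 and 26.8 TPM in control, the largest change of the list (3.78, SE 0.07, adjusted p = 5.78e-13). Akr1b8, an aldo-keto reductase, rose to 881 ± 53.3 TPM, against 163 ± 10.8 TPM in control, and Hmox1, haem oxygenase, to 368 ± 62.9 TPM, against 169.9 ± 4.39 TPM in control. The ferritin genes were among the 5 most abundant transcripts of the 100 µM group: Fth1, the heavy chain, was at 21452, 18774 and 22842 TPM in the 100 µM libraries, against 6281, 6549 and 6465 TPM in control, and Ftl1, the light chain, at 20076, 27991 and 18608 TPM in the 100 µM libraries, against 7689, 8277 and 8299.8 TPM in control. The summed level of the list, mostly ferritin, was 5.56% ± 0.36 of all TPM at 100 µM and 2.26% ± 0.03 in control. Abcc1, an exporter of conjugates, fell to 7.15 ± 1.84 TPM, against 34.7 ± 1.88 TPM in control. Heat shock genes of the cytosol did not rise together: of 31, 8 were higher and 17 lower, and 18 higher and 10 lower after scaling. The small heat shock proteins of muscle were among those that fell, Hspb7 to 2.07 ± 0.426 TPM, against 97.9 ± 2.81 TPM in control, and Cryab to 46.1 ± 7.8 TPM, against 299.7 ± 6.88 TPM in control.

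Chemokine genes had some of the largest rises, and their 100 µM libraries spread widely. Cxcl1, a neutrophil attractant, had 3098, 1493 and 2632 TPM in the 100 µM libraries, against 46.4, 33.9 and 54.2 TPM in control, a 53.7-fold higher mean (log2 fold change 5.68, SE 0.26, adjusted p = 4.54e-10; 5.99 without the second library). Ccl2, which draws monocytes, had 1865, 1073 and 1591 TPM in the 100 µM libraries, against 70.6, 72 and 79 TPM in control (4.30; 4.53 without the second library). In both the second library was the lowest of the 100 µM group, yet far above control. Of 33 inflammation genes tested, 22 were higher and 6 lower, with a median of 0.76, and 26 higher and 5 lower after scaling. Members under 1 TPM in every control library, such as Csf2, passed the filter through deprived cells alone and could hardly come out lower. Il23a, a cytokine subunit, had 33.7, 19.8 and 30.8 TPM in the 100 µM libraries, against 1.16, 1.15 and 1.35 TPM in control, and Cx3cl1, a membrane-bound chemokine, 11.9, 7.67 and 13.9 TPM in the 100 µM libraries, against 0.33, 0.27 and 0.39 TPM in control. Csf2, the growth factor GM-CSF, was listed at 0 in every control library and at 12.1, 7.66 and 15.6 TPM at 100 µM. The falls included receptors and one chemokine: Il1rl1, the IL-33 receptor, was at 0, 0.02 and 0.03 TPM in the 100 µM libraries, against 11.3, 11 and 11.4 TPM in control, Il1r1 averaged 2.28 ± 0.17 TPM at 100 µM and 17 ± 1.15 TPM in control, and Cxcl12 34.6 ± 7.07 TPM at 100 µM and 539 ± 9.69 TPM in control. The summed TPM of 13 leukocyte markers, of which 3 reached the filter, was 6.94 to 9.42 at 100 µM and 37.7 to 39.5 in control. Most of this sum was Cd14, at 5.64, 6.59 and 6.2 TPM at 100 µM and 35.6, 33.1 and 33.7 TPM in control. Ptprc averaged 0.003 TPM at 100 µM and was listed at 0 in control. Whether leukocytes were present was not tested. Of 31 interferon-stimulated genes, 10 were higher and 13 lower, and 15 higher and 6 lower after scaling. Gbp5, a guanylate-binding protein gene that stands on more than 1 row, had 8.73, 7.83 and 11.2 TPM in the 100 µM libraries, against 0.04, 0 and 0.03 TPM in control.

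**Figure D2:**
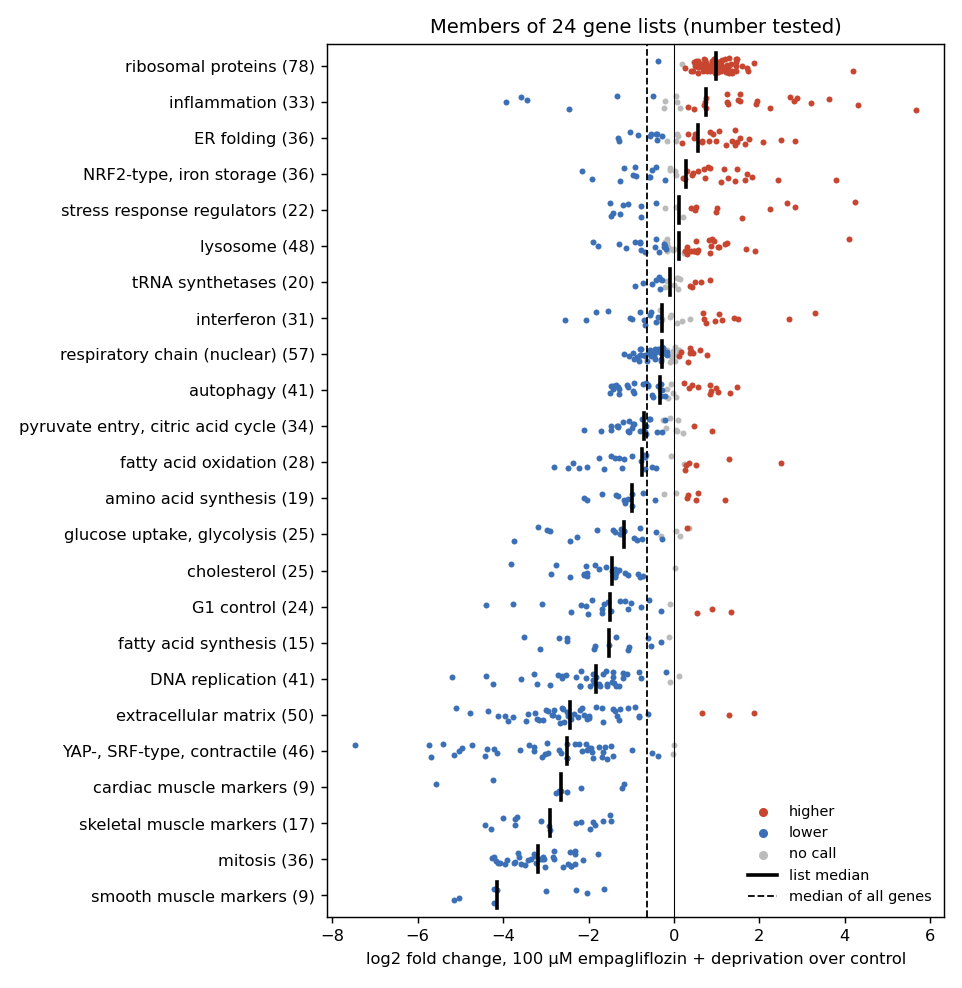
Log2 fold change of deprived cells with 100 µM empagliflozin over control for the tested members of 24 gene lists, 1 point per gene, coloured by call (adjusted p under 0.05); thick bars are list medians and the dashed line is the median of all tested genes, -0.62. Ribosomal protein, inflammation and ER folding lists have the highest medians (0.98, 0.76 and 0.57), and mitosis and smooth muscle marker lists the lowest (-3.18 and -4.14).

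Nearly all genes of mitosis and DNA replication fell. All 36 tested mitosis genes were lower by more than 2-fold, with a median log2 fold change of -3.18 beside -0.62 for all genes, and all 36 were lower after scaling. Members under 1 TPM in every deprived library, such as Top2a and Anln, passed the filter through control alone and could only come out lower. Cdc20, which activates the ligase that starts anaphase, had 1.91, 1.97 and 1.92 TPM in the 100 µM libraries, against 53.5, 54.6 and 56.5 TPM in control (-4.25, SE 0.11, adjusted p = 6.30e-12). Anln, a cytokinesis scaffold, and Top2a, the topoisomerase that untangles chromosomes, averaged 0.57 ± 0.106 TPM at 100 µM and 27.2 ± 1.37 TPM in control and 0.427 ± 0.145 TPM at 100 µM and 17.7 ± 0.894 TPM in control. Mki67, the proliferation marker, was at 0.63, 1.07 and 0.85 TPM in the 100 µM libraries, against 27.7, 26.5 and 25.3 TPM in control. Of 41 DNA replication genes, 39 were lower and the other two had no call; after scaling 36 were lower and 2 higher. Mcm5, a subunit of the replicative helicase, had 0.85, 0.51 and 0.75 TPM in the 100 µM libraries, against 62.8, 61.8 and 59.8 TPM in control, and Tk1, thymidine kinase, 1.23, 1.68 and 1.59 TPM in the 100 µM libraries, against 51.3, 52.7 and 52.3 TPM in control. Rrm2, the ribonucleotide reductase subunit, fell to 5.04 ± 0.165 TPM, against 114 ± 7.25 TPM in control. Of 24 genes of G1 control, 3 were higher and 20 lower, and 5 higher and 17 lower after scaling. Ccnd1, cyclin D1, averaged 14.3 ± 3.42 TPM at 100 µM and 316 ± 21.8 TPM in control and Mycn 0.13 ± 0.09 TPM at 100 µM and 14.4 ± 0.474 TPM in control, whereas Myc rose to 23.4 ± 0.766 TPM, against 8.74 ± 0.999 TPM in control.

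The promoters of 3 mitosis genes are shown because they hold TTTGAA, the core of the cell cycle homology region through which such genes are kept silent in resting cells. They lie at chr5:137255800-137255889 (minus strand), chr10:84473094-84473183 (minus strand) and chr8:29197514-29197603 (minus strand) of GRCr8, with matches on either strand (TTTGAA or TTCAAA) in capitals.
Cdc20: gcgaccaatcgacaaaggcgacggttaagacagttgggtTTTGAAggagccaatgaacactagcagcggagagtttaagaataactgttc
Top2a: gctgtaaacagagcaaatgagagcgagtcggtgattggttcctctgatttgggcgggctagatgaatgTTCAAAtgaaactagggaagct
Anln: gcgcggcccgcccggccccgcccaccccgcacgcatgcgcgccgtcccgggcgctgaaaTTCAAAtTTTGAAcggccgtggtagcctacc

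The hexamer was found in 14 of 31 mitosis promoters (45.16%), in 10.60% of tested rows and in 16.20% of all promoters. The 14 genes with it had a median log2 fold change of -3.43, against -2.80 for the 17 without, and all 31 were lower. The Anln promoter holds both orientations next to each other.

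**Figure D3:**
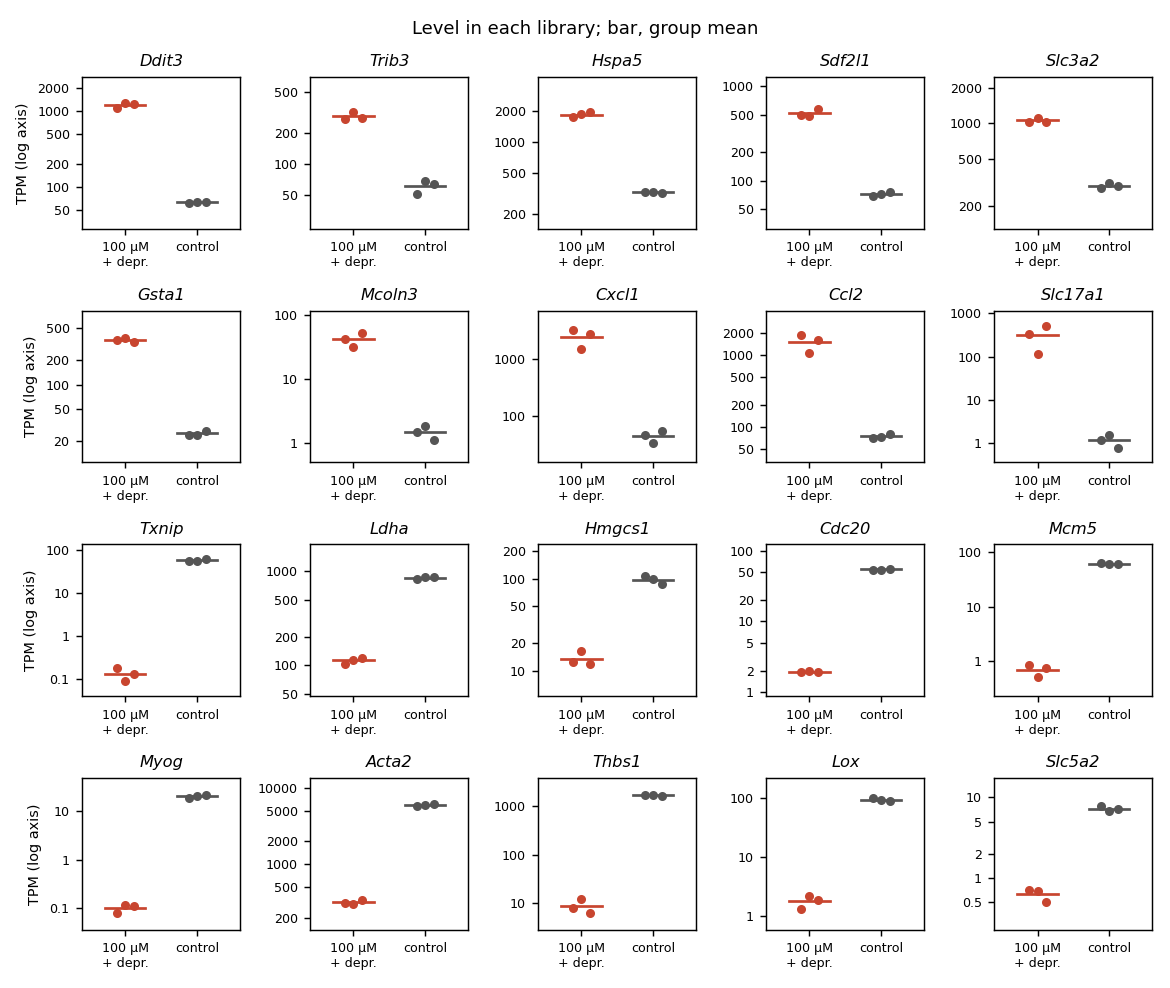
Level in TPM (log axis, its own range in each panel) of 20 genes in the 3 libraries of deprived cells with 100 µM empagliflozin (left) and the 3 control libraries (right); bars are group means. The groups do not overlap in any panel; for Slc17a1, Cxcl1 and Ccl2 the second 100 µM library is the lowest of its group, and for Thbs1 the highest.

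Ribosomal protein genes, which are short and very abundant, rose together. Of 78 tested, 76 were higher and 1 lower (median 0.98), and all 78 were higher after scaling. They held 35.8% ± 1.67 of all TPM at 100 µM and 17.9% ± 0.33 in control (SD, n = 3 each), so the gain is a gain in share; fewer other transcripts and more of these cannot be told apart. Rps3a, of the small subunit, had 4922, 4555 and 4424 TPM in the 100 µM libraries, against 1252, 1289 and 1270.5 TPM in control, and Rpl10, of the large subunit, 4564, 4261 and 4430.5 TPM in the 100 µM libraries, against 1826, 1864 and 1941 TPM in control. Rpl41, one of the most abundant transcripts in both groups, was at 25104, 23401 and 21809 TPM in the 100 µM libraries, against 10958, 11217 and 11885 TPM in control (log2 fold change 1.04, and 0.10 with no call under quantile normalization). Rpl39 was the member called lower (-0.37), and was called higher after scaling (0.33). Rpl35a was listed at 0 in all control libraries and at 25.8, 24.5 and 7.89 TPM at 100 µM; since every cell uses this gene, an exact 0 can be a failed estimate, and no fold is given. Ribosomal protein genes have many processed copies in the genome, and how reads were shared among them is not given in the sources used here. Of 39 translation factors, 15 were higher and 15 lower, and 30 higher and 5 lower after scaling; Eif4g1, the scaffold of cap-dependent initiation, fell to 41.4 ± 1.57 TPM, against 132 ± 6.61 TPM in control, and Eif1 rose to 813 ± 29 TPM, against 384 ± 8.54 TPM in control. Of 37 ribosome assembly genes, 7 were higher and 20 lower as deposited, but 29 higher and 2 lower after scaling; Npm1, nucleophosmin, rose by 1.08 and Polr1a, the large subunit of RNA polymerase I, fell by 1.33, on the log2 scale. Proteasome genes likewise turned with scaling: of 38, 5 were higher and 26 lower as deposited, and 27 higher and 5 lower after scaling; Psmd2, of the regulatory particle, averaged 110.2 ± 3.22 TPM at 100 µM and 278 ± 8.5 TPM in control, and Psmb9, of the immunoproteasome, 25.2 ± 7.88 TPM at 100 µM and 8.04 ± 0.947 TPM in control.

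Genes of the cytoskeleton and the extracellular matrix were nearly all lower. Thbs1, which encodes the matrix protein thrombospondin 1, had the lowest log2 fold change of the genes named by the rule, with 7.99, 12.2 and 6.22 TPM in the 100 µM libraries, against 1684, 1717 and 1608 TPM in control. Its mean was 189.8-fold lower (log2 fold change -7.46, SE 0.18, adjusted p = 5.15e-12). Of 46 genes of the YAP and SRF type and of the contractile apparatus, 44 were lower and the other two had no call (median -2.51); after scaling 42 were lower and 3 higher. Cyr61, a matricellular YAP target, had 3.34, 5.89 and 6.04 TPM in the 100 µM libraries, against 313, 315 and 297 TPM in control. Ankrd1, a stretch-responsive YAP target of muscle, had 10.1, 27.1 and 10.9 TPM in the 100 µM libraries, against 903, 811 and 775 TPM in control (-5.74; -6.18 without the second library, the highest of the 3). Actb, cytoplasmic actin, averaged 1361 ± 109 TPM at 100 µM and 8775 ± 207 TPM in control. Of 50 genes of the extracellular matrix, 3 were higher and 47 lower (median -2.44; 3 higher and 43 lower after scaling). Members under 1 TPM in every deprived library, such as Thbs2, passed the filter through control alone and could only come out lower. Col1a1, a chain of fibrillar collagen and one of the 5 most abundant transcripts of control cells, was at 453, 872 and 568 TPM in the 100 µM libraries, against 8327, 9452 and 9113 TPM in control (-3.88; -4.14 without the second library). Lox, which crosslinks collagen, had 1.3, 2.16 and 1.87 TPM in the 100 µM libraries, against 98, 91 and 90.2 TPM in control. Mmp13, a collagenase, was the member with the largest rise, at 2.19, 1.15 and 6.72 TPM in the 100 µM libraries, against 0.07, 0 and 0 TPM in control (1.88, SE 0.33, adjusted p = 0.000159; 1.36 without the third library).

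The promoters of Thbs1 and Cyr61 (Ccn1 in RefSeq) are shown because they hold GGAATG, the core that TEAD factors, the partners of YAP, bind. They lie at chr3:125510160-125510249 (plus strand) and chr2:237225690-237225819 (minus strand) of GRCr8, with the match (GGAATG or CATTCC) in capitals.
Thbs1: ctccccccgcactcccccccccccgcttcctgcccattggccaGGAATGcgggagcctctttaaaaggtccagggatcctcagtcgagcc
Cyr61: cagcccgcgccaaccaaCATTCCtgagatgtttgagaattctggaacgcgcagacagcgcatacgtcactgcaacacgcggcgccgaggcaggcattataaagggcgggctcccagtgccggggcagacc

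The core was found in 12 of 36 promoters of this list (33.33%), in 10.11% of tested rows and in 12.06% of all promoters. It was also found in 8 of 28 promoters of the inflammation list (28.57%), in which more genes were higher than lower. The 12 genes with it had a median log2 fold change of -2.99 and were all lower, against -2.03 for the 24 without, of which 22 were lower.

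Muscle markers fell with these genes. All 17 tested skeletal muscle markers (of 31) were lower, with a median of -2.90, as were the 9 tested markers of heart muscle (-2.65) and of smooth muscle (-4.14); all were lower after scaling too. Myog, myogenin, the factor that starts myoblast differentiation, had 0.08, 0.12 and 0.11 TPM in the 100 µM libraries, against 19.1, 20.6 and 21.8 TPM in control (-4.28, SE 0.14, adjusted p = 3.02e-11). Tnnc1, a troponin, averaged 9.61 ± 1.66 TPM at 100 µM and 168 ± 8.79 TPM in control, and Klhl41, a sarcomere assembly factor, 2.22 ± 0.732 TPM at 100 µM and 158 ± 13.4 TPM in control. Casq2, cardiac calsequestrin, was at 6.05, 7.24 and 6.38 TPM in the 100 µM libraries, against 145, 139 and 138 TPM in control, and Gja5, connexin 40, at 1.87, 3 and 3.21 TPM in the 100 µM libraries, against 170.4, 174 and 173 TPM in control. Acta2, smooth muscle actin, which stands in 2 lists, had 309.96, 306 and 343 TPM in the 100 µM libraries, against 5758, 6008 and 6072 TPM in control (-4.22, SE 0.08, adjusted p = 5.78e-13). The summed level of the 31 skeletal markers was 73.2 to 113 TPM at 100 µM and 692 to 711 TPM in control. The 10 fibroblast markers summed to 192 to 302 TPM at 100 µM and 1752 to 1867 TPM in control. The 26 heart muscle markers summed to 138 to 165 TPM at 100 µM and 930 to 941 TPM in control. For the 9 smooth muscle markers the sums were 460 to 528 TPM and 8692 to 9091 TPM. Each of these sums exceeded that of the skeletal markers in both groups, but the lists differ in length and a few abundant genes carry the sums. Acta2 and Tagln made up most of the smooth muscle sum, and Thy1, Gsn and Mfap5 most of the fibroblast sum. The sums therefore do not rank kinds of cells. The part of such cells in the results was not tested. All tested markers of fibroblasts (4 of 10), endothelium (3 of 12) and leukocytes (3 of 13) were lower, with 1 of the leukocyte markers not called after scaling, and Pecam1, Cdh5 and Ptprc averaged at most 0.05 TPM in either group. A marker that passed the filter through the control libraries alone, such as Myog, Tie1 or Csf1r, could only come out lower. The shared direction of these marker lists is therefore partly fixed by the filter. In bulk RNA, fewer cells of a kind and less RNA per cell cannot be told apart.

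The drug's target and its relatives were scarce. Slc5a2, which encodes SGLT2, had 0.7, 0.69 and 0.5 TPM in the 100 µM libraries, against 7.88, 6.76 and 7.15 TPM in control, so that all 100 µM libraries were below 1 TPM (log2 fold change -2.34, SE 0.16, adjusted p = 2.04e-08). GD cells, which lacked the drug, had 1.23, 1.04 and 0.79 TPM of Slc5a2. Slc5a1, which encodes SGLT1, did not reach the filter, with 0.02, 0.04 and 0 TPM at 100 µM and 0.03, 0 and 0 TPM in control. Of 21 tested sodium-handling genes, 2 were higher and 14 lower, and 6 higher and 10 lower after scaling; Atp1b1, the beta subunit of the sodium pump, averaged 1.21 ± 0.407 TPM at 100 µM and 38.3 ± 3.13 TPM in control, and Slc8a1, the sodium-calcium exchanger, 0.663 ± 0.224 TPM at 100 µM and 13.9 ± 0.834 TPM in control. Slc17a1, a sodium-phosphate cotransporter known from kidney, had the largest rise of the genes named by the rule, with 328, 118 and 523 TPM in the 100 µM libraries, against 1.17, 1.56 and 0.8 TPM in control. Its mean was 274-fold higher (log2 fold change 6.99, SE 0.41, adjusted p = 4.77e-09; 7.59 without the second library). Without the drug, Slc17a1 was already at 178, 145 and 163 TPM in GD cells. Of 23 genes of the AMPK and mTOR pathways, 1 was higher and 18 lower, and 8 higher and 12 lower after scaling; Mtor averaged 3.5 ± 0.228 TPM at 100 µM and 10.9 ± 0.659 TPM in control, and Rptor, its partner, 4.47 ± 0.505 TPM at 100 µM and 11.9 ± 0.705 TPM in control.

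Genes of growth arrest and death gave no single direction. Of 27 p53-type targets, 8 were higher and 16 lower, and 12 higher and 11 lower after scaling; Gadd45a, a damage and stress response gene, had 675, 775 and 807 TPM in the 100 µM libraries, against 119.9, 120.3 and 118 TPM in control, whereas its relative Gadd45b averaged 16 ± 1.62 TPM at 100 µM and 96.9 ± 1.1 TPM in control. Of 32 apoptosis and necroptosis genes, 6 were higher and 21 lower, and 13 higher and 11 lower after scaling. Casp4, an inflammatory caspase, rose to 99.3 ± 7.69 TPM, against 18.4 ± 1.37 TPM in control, and Birc3, an inhibitor of apoptosis, to 14.8 ± 3.78 TPM, against 1.52 ± 0.065 TPM in control. Bmf, a pro-death BH3 protein, was at 0.33, 0.72 and 0.3 TPM in the 100 µM libraries, against 16.5, 16.1 and 16.2 TPM in control. Of 19 FOXO-type and atrophy genes, 3 were higher and 16 lower, and 4 higher and 12 lower after scaling, with Klf15, a metabolic transcription factor, at 14.8 ± 1.31 TPM at 100 µM and 3.09 ± 0.399 TPM in control, and Irs1, the insulin receptor substrate, at 0.74 ± 0.131 TPM at 100 µM and 5.46 ± 0.351 TPM in control. Of 21 immediate early genes, 5 were higher and 16 lower, and 5 higher and 12 lower after scaling; Egr1, a growth factor response gene, had 1.26, 1.88 and 1.87 TPM in the 100 µM libraries, against 61.9, 56.2 and 55 TPM in control. Of 16 hypoxia genes, 4 were higher and 6 lower, and 8 higher and 3 lower after scaling; Hilpda, which protects lipid droplets, rose to 80.0 ± 8.11 TPM, against 22.5 ± 0.314 TPM in control.

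Genes that crossed the limit of detection mostly did so downwards. Under 1 TPM in every 100 µM library and at 5 TPM or more in every control library were 178 rows, against 11 the other way round. Only 1 row was listed at 0 in all 100 µM libraries and at 5 TPM or more in all control libraries. This was B4gat1, a glycosyltransferase of dystroglycan, with 32.6, 35.9 and 28.7 TPM in control. It was also listed at 0 in every GD library and at 6.11, 0 and 0 TPM at 200 µM, and an exact 0 can be a failed estimate. Besides Csf2 and Rpl35a, 2 rows were listed at 0 in all control libraries and at 5 TPM or more in all 100 µM libraries. LOC100362895, annotated as a heat shock protein 1 alpha-like gene, was at 154, 141 and 129 TPM at 100 µM. LOC106736471, annotated as an antisense transcript of the inducible nitric oxide synthase gene, was at 19, 9.87 and 21.3 TPM at 100 µM. A gene so named can share reads with its parent gene, and without strand information reads of Nos2 and its antisense transcript cannot be told apart. Other genes with the largest changes by the rule were Nrip2, a nuclear receptor interacting protein, at 15.7, 12.7 and 20.3 TPM in the 100 µM libraries, against 0.39, 0.09 and 0.45 TPM in control, Medag, which promotes fat cell formation, at 0.48, 1.05 and 0.61 TPM in the 100 µM libraries, against 73.4, 73.9 and 75.1 TPM in control, and Igfbp5, which binds insulin-like growth factors, at 2.31, 7.65 and 2.27 TPM in the 100 µM libraries, against 212, 204 and 199 TPM in control. The second library was the highest of the 100 µM group for Igfbp5 (-5.50; -5.97 without it).

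Where the 100 µM group differs from deprivation alone was tested directly. Between deprived cells with 100 µM and deprived cells without the drug, 1597 of 12314 genes differed (13.0%), 925 higher (7.51%) and 672 lower (5.46%), with a median difference of 0.02; after scaling 998 were higher and 1277 lower. Of the 9937 genes called against control, 1285 also differed from GD cells: 586 were further from control at 100 µM and 699 were nearer or beyond it. The lists with most genes higher than in GD cells were the respiratory chain and inflammation. Of 57 respiratory chain genes, 30 were higher than in GD cells and the others had no call (19 higher after scaling). Cyc1, cytochrome c1, averaged 126 ± 3.69 TPM at 100 µM, 95.1 ± 4.46 TPM in GD cells and 261 ± 12.7 TPM in control (difference from GD 0.40, SE 0.06, adjusted p = 0.00108). Of 33 inflammation genes, 20 were higher and the others had no call, with a median difference of 0.57 (19 higher after scaling). Ccl7, a monocyte chemokine, had 509, 352 and 458 TPM at 100 µM, against 132, 149.99 and 179.98 TPM in GD cells and 66.3, 56.6 and 72.5 TPM in control. Csf2 was at 0.96, 1.62 and 3.32 TPM in GD cells, below every 100 µM library (difference 2.14, SE 0.27, adjusted p = 0.00053). Pla2g2a, a secreted phospholipase, had 8.65, 4.66 and 20.4 TPM at 100 µM and 1.22, 0.91 and 0.73 TPM in GD cells (difference 2.44); the third library was the highest. Cxcl12, which was far below control, was still above GD cells, at 33.3, 28.2 and 42.2 TPM, against 8.1, 9 and 8.23 TPM in GD cells. H19, an imprinted growth-linked noncoding RNA, did likewise, with 283, 415 and 338 TPM at 100 µM, 87.5, 107 and 86.2 TPM in GD cells and 4289, 4371 and 4599 TPM in control.

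Other lists leaned the other way against GD cells. Of 36 NRF2-type genes, 3 were higher and 12 lower than in GD cells, of 48 lysosomal genes 1 and 14, of 31 heat shock genes 1 and 9, and of 36 ER folding genes 1 and 7. After scaling the lower counts were 18, 17, 15 and 11, in the same order. Osgin1, an oxidative stress-induced growth inhibitor, had 6.72, 9.44 and 6.02 TPM at 100 µM, against 17.5, 21.3 and 16.5 TPM in GD cells and 1.6, 1.79 and 1.51 TPM in control (difference from GD -1.22, SE 0.16, adjusted p = 0.00057). Gabarapl1 averaged 99.1 ± 0.508 TPM at 100 µM and 171 ± 8.04 TPM in GD cells. Atf3 was lower than in GD cells by 0.84 on the log2 scale, while Ddit3 was not called, with a difference of -0.08 (SE 0.11, adjusted p = 0.685). Fgf7, a fibroblast growth factor, was below control at 100 µM (-0.84, but -0.13 with no call after scaling). In GD cells it was called above control, although the third GD library lay below the first control library. Fgf7 had 17.8, 26.6 and 18.8 TPM at 100 µM, 57, 57.9 and 39.4 TPM in GD cells and 40.5, 34.8 and 38.6 TPM in control. Armc8, part of a ubiquitin ligase complex, was at 43.9, 36.8 and 38 TPM, against 109, 104 and 152 TPM in GD cells, and Serpinb1a, a protease inhibitor, at 1.3, 1.12 and 1.04 TPM, against 5.34, 6.87 and 2.25 TPM. Lists in which limma called 0 genes between the deprived groups with and without the drug included mitosis (36 genes, 2 with an unadjusted p under 0.05), DNA replication (41 and 9) and ribosomal proteins (78 and 10); a missed threshold does not show equal levels. After scaling, 1 mitosis gene and 5 replication genes were called lower and 2 replication genes higher. Sod2, mitochondrial superoxide dismutase, stood out among NRF2-type genes as higher than in GD cells, by 1.33; it was chosen after its values were seen.

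**Figure D4:**
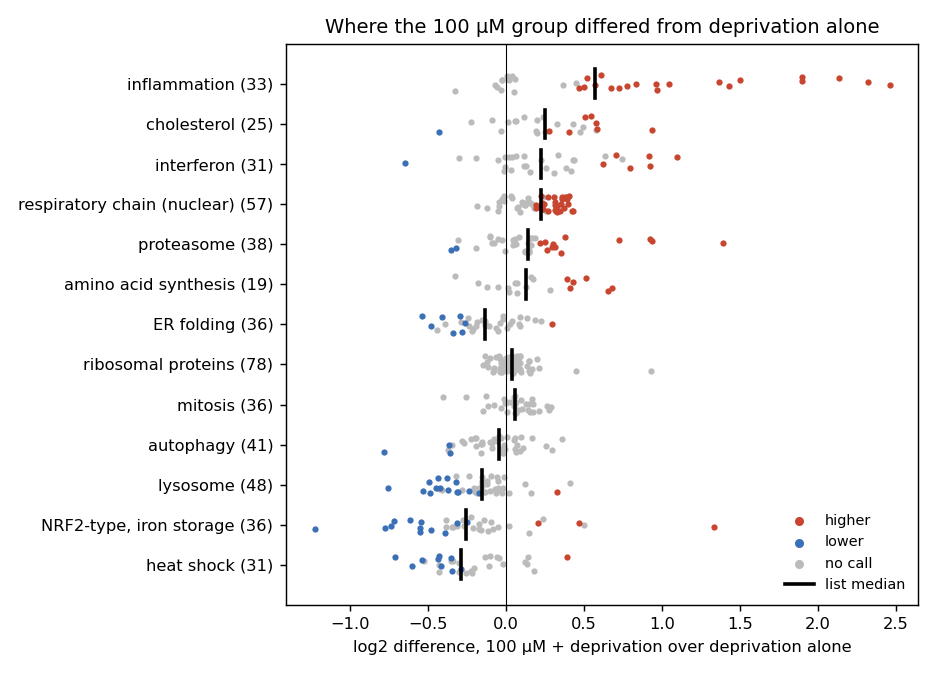
Log2 difference of deprived cells with 100 µM empagliflozin over deprived cells without the drug for the tested members of 13 gene lists, 1 point per gene, coloured by call (adjusted p under 0.05); bars are list medians. Inflammation genes lie to the right (20 of 33 higher), respiratory chain genes cluster slightly above 0 (30 of 57 higher), and mitosis and ribosomal protein genes hold no called member.

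The 200 µM group was also set against the 100 µM group directly. At 200 µM 4159 genes differed from 100 µM (33.8%), 3167 higher (25.7%) and 992 lower (8.06%); after scaling 2296 were higher and 2281 lower. ER folding genes differed in 1 direction: of 36, 31 were lower at 200 µM and the others had no call (median -0.72; 32 lower after scaling). Hspa5 averaged 469.9 ± 163 TPM at 200 µM and 1829 ± 96.4 TPM at 100 µM (difference -2.02, SE 0.19, adjusted p = 9.29e-06), and Sdf2l1 84.1 ± 25.9 TPM at 200 µM and 518 ± 45.7 TPM at 100 µM. Ddit3 was lower too, at 489.8, 668 and 501 TPM in the 200 µM libraries (-1.13). By contrast, 35 of 46 YAP-type and contractile genes and 35 of 50 matrix genes were higher at 200 µM than at 100 µM, while 1 and 2 were lower; after scaling 34 and 35 were higher. Thbs1 was at 77.4, 63 and 64.2 TPM and Cyr61 at 52.5, 47.1 and 47.9 TPM at 200 µM, still far below control. Inflammation genes were higher at 200 µM in 23 of 33 and lower in 2 (16 and 3 after scaling). Csf2 was one of those lower, at 2.96, 4.63 and 4.08 TPM. Angptl4 had 66.8, 66.7 and 90.9 TPM at 200 µM, a level above every 100 µM library (difference 3.34, SE 0.24, adjusted p = 1.11e-06). Of 36 mitosis genes 4 were higher at 200 µM and the others had no call, with a median difference of -0.04; after scaling 3 were higher and 3 lower.

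**Figure D5:**
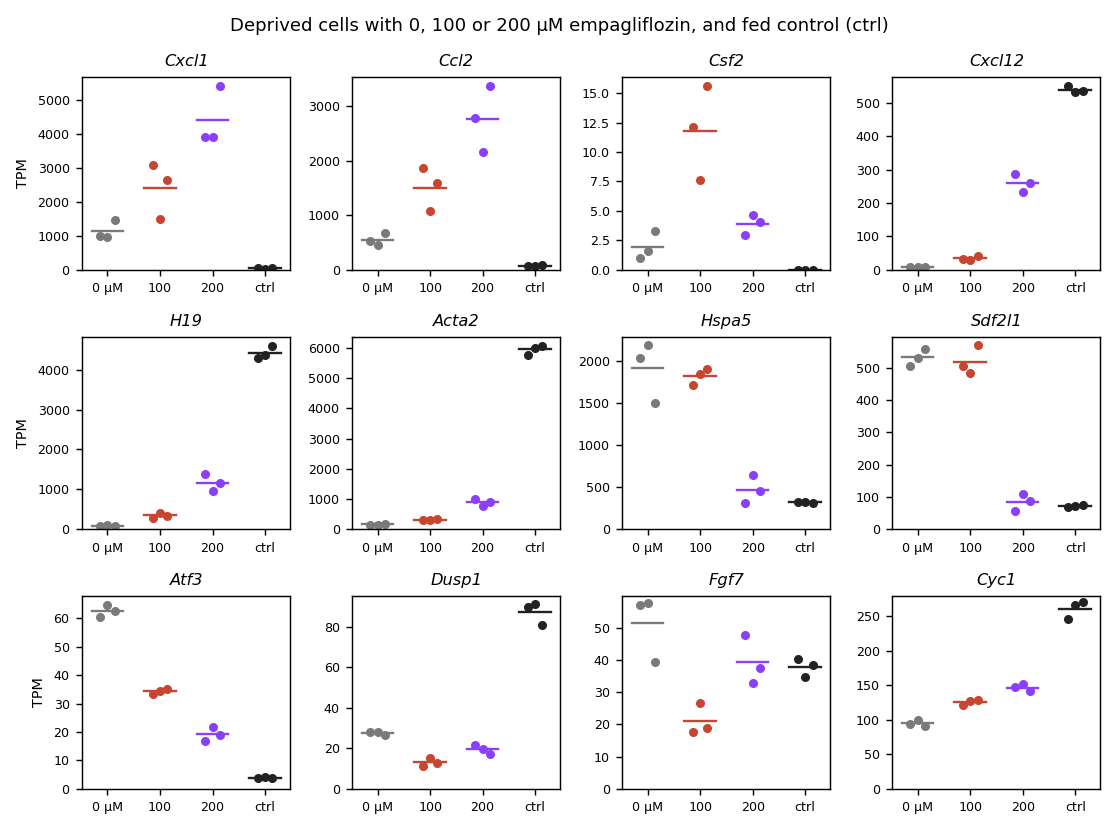
Level in TPM of 12 genes in each library of cells deprived of glucose with 0, 100 or 200 µM empagliflozin, and of control cells (ctrl, fed, without the drug); bars are group means and each panel has its own axis, starting at 0. Hspa5 and Sdf2l1 lie closer to control at 200 µM than at 100 µM, Acta2 and H19 stay below control in all deprived groups, and Fgf7 at 100 µM is below both GD and control cells.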

How the data were processed

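RNA was extracted with TRIzol, treated with DNase I and sequenced on an Illumina instrument, per the labels' protocols. The authors deposited 1 table of gene levels in TPM for all 12 libraries; the unit was taken from the values. Reads were aligned with HISAT2 and assembled with StringTie, per the submitters' processing notes. Neither tool's version, nor the build, annotation or strandedness, is given in the sources used here. TPM are relative to gene length and to the library's total and keep no depth, so no interval for counting error could be given.

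Groups were taken from the labels. Rows that reached 1 TPM in 3 or more libraries were tested with limma-trend (limma 3.58.1, R 4.3.3) on log2(TPM + 1), a scale that understates changes of low genes, with 1 mean per group over all 12 libraries. Since the values are normalized, no count model was used. Tests were two-sided, with Benjamini-Hochberg adjustment over all 12314 rows and a threshold of 0.05. The fit was tested on simulated data. Tables, motif searches and figures were made with Python 3.11.15, pandas 2.3.3 and matplotlib 3.10.9. A symbol that stands on several rows is reported by its own row.

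Genes were named by a rule: the 10 genes with the highest and the 10 with the lowest log2 fold change among those called, without overlap between groups and with a mean of at least 10 TPM in a group, per list the 3 called members with the smallest p and the largest change in each direction, a fixed set, up to 6 genes listed at 0 in a group, the 5 most abundant per group, and the 6 highest and 6 lowest differences from deprived cells without the drug that were called in both comparisons. Outside the lists and the fixed set, the rule took only established symbols, without prefixes such as LOC, RGD or Mt- or a numbered suffix. LOC100362895 and LOC106736471 are therefore outside it and are printed only as rows listed at 0 in control. Genes listed at 0 in a group had to reach 5 TPM or more in every library of the other group. Only some of the genes of the rule are printed. Hsp90b1, Dnajc3, Creld2, Nupr1, Sod2, Myod1 and Tnnt2 fall outside the rule and were named after their values were seen. The comparison, the 42 gene lists and the rule were chosen with earlier results of these data known. Same-numbered libraries of the 2 groups did not deviate together (correlations -0.036, -0.035 and -0.036), so replicate numbers were not used to pair them. Alternatives in scaling, filter, pseudocount, model and left-out libraries were run.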

Additional observations from a re-analysis of the deposited data

Results flagged for a closer look

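Fgf7, which encodes a fibroblast growth factor, changed in opposite directions in 2 deprived groups set against the same control libraries. Its log2 fold change over control was -0.84 in deprived cells with 100 µM and 0.41 in deprived cells without the drug (adjusted p = 0.046, limma). The libraries without the drug overlapped control, at 57, 57.9 and 39.4 TPM, against 40.5, 34.8 and 38.6 TPM in control. The direct difference between these deprived groups was -1.25 (adjusted p = 0.000948, limma with Benjamini-Hochberg adjustment). All 3 libraries at 100 µM were below all 3 libraries without the drug. After median-of-ratios scaling the fold changes over control were -0.13, with no call, at 100 µM and 1.15 without the drug.

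Hsp90b1, the ER member of the HSP90 chaperones, did the same between the drug concentrations. Its log2 fold change over control was 1.43 at 100 µM and -0.57 at 200 µM (adjusted p = 0.00127), and 200 µM differed from 100 µM by -2.005 (adjusted p = 4.46e-07, limma). After scaling the value at 200 µM was -0.003, with no call, so that the opposite direction depends on scaling while the difference between the concentrations was tested directly. The causes were not tested.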

How the results depend on the processing

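The counts of called genes depended on how libraries were scaled. Against 1738 higher and 8199 lower genes as deposited, there were 5158 and 4342 under quantile normalization, 4716 and 4712 under median-of-ratios scaling, and 3101 higher without ribosomal protein and ferritin genes. With a 2-fold minimum there were 437 and 4016. Leaving out each library of the compared groups gave 1578 to 1667 higher and 7841 to 8089 lower genes. With the replicate number as a block there were 1751 and 8237, although the numbers share no deviation. Rescaled totals, other filters, a pseudocount of 0.1 and other limma settings kept both counts within 1.5 times. Of 2512 values of 140 named genes under these alternatives, 10 had the opposite sign, 12 lost the call and 8 gained it. Rpl39 turned to 0.33 under quantile and under median-of-ratios scaling. Under quantile normalization, median-of-ratios scaling and without ribosomal protein and ferritin genes, Xbp1 turned to 0.32, 0.55 and 0.24, and Becn1 to 0.14, 0.36 and 0.037. Over the left-out libraries Asns ranged over -0.002 to 0.085 and Slc2a1 over -0.009 to 0.32, both turning without the third 100 µM library. The cause was not tested. TPM keep no depth, so counting error could not be separated from the spread between libraries.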
